A study of Mus musculus with 10 samples.

Results

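The naive pluripotency genes described here are Nanog, Esrrb, Tfcp2l1, Tbx3, Nr0b1, Nr5a2, Zfp42 and Tcl1, 8 genes chosen by name. Every probe set of the array whose only gene symbol was a member was taken, which gave 15 probe sets of the 20380 with a single symbol. Of these 15, 13 passed the filter on dim probe sets (a log2 value above 4 on at least 2 of the 10 arrays), as did 14012 probe sets of 8599 genes over the whole array. The 2 that did not pass were probe sets of Tfcp2l1, and all 8 genes kept at least 1 probe set. Nanog, Esrrb, Tfcp2l1, Tbx3, Nr5a2 and Zfp42 encode DNA-binding transcription factors. Nr0b1 encodes a receptor-family corepressor and Tcl1 a coactivator of the kinase AKT, so these 2 belong to the naive network without being transcription factors of the usual kind.

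In the mouse, naive pluripotency is the state of the preimplantation epiblast and of embryonic stem cells, and it is held by an interlocking set of factors that bind the enhancers of each other's genes beside Pou5f1 and Sox2. Outside signals reach different members, LIF acting through STAT3 on Tfcp2l1 and on Klf4, inhibition of GSK3 relieving the repressor Tcf7l1 at Esrrb, and ERK signalling working against Nanog and its partners. Fibroblasts hold most of these genes silent, and their return is a late step of reprogramming.

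The study measured RNA of mouse cells on 10 single-channel Affymetrix arrays, in 5 groups of 2 arrays. The Sox2-positive and the Sox2-negative group were fractions of secondary mouse embryonic fibroblasts (MEFs) made to express the reprogramming factors of Yamanaka, which are Pou5f1, Sox2, Klf4 and Myc, over 32 days, and the series title names RNA FACS, a sort of cells by the RNA they hold. A further group came from such cells at day 32 with no fraction named, called the day 32 sample below. The other groups were established induced pluripotent stem cells (iPSC), grown either in serum with 2i, a pair of inhibitors of MEK and GSK3, or together with MEFs. The labels call the cells of all 5 groups iPSCs, although markers such as Zfp42 lay under the filter value in the Sox2-negative fraction. No starting fibroblast sample was analysed here. The labels give neither the strain nor the allele that drives the factors, and they do not say whether MEFs were removed from the co-cultures or whether the 2 replicates of a group were separate cultures. The p-values therefore measure only the spread between these samples, which may be technical. The number of arrays limits the precision, and 2 arrays a group would not let an exact permutation test (two-sided) go below p = 0.333.

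All levels are deposited log2 values, and a difference of 1 is a doubling. A difference was called when its limma p, adjusted by Benjamini-Hochberg over all 14012 kept probe sets, was under 0.05. Where the lower group lay under 4 on every array the fold is given as a lower limit measured from 4. The arrays formed 2 classes. Median values were 4.27 to 4.33, and the control for 18S ribosomal RNA read 11.35 to 13.22, in both sorted fractions and in iPSC with MEFs. In the day 32 sample and iPSC in 2i the medians were 5.28 to 5.36 and the 18S control read 5.25 to 6.55. In a comparison across the classes, group and class cannot be told apart. Inside the class with high 18S, upper quartiles were 6.87 to 6.91 on the sorted arrays and 7.37 and 7.38 in iPSC with MEFs. The gap between the 3′ and 5′ control probe sets of Actb, a sign of RNA or copying quality, was 0.05 to 0.21 on the sorted arrays, 1.08 and 1.12 in iPSC with MEFs and 2.70 to 3.88 in the class with low 18S, and its part in the results was not tested.

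Promoters are shown for 3 members that behaved differently in the sorted fractions, Zfp42, Nanog and Nr5a2. Zfp42 had the largest measured difference, which rests partly on Sox2-negative values under 4. Nanog had a smaller one and Nr5a2 none that passed the test. The sequences come from RefSeq (build GRCm38.p6), cover 250 bases before to 50 after an annotated gene start, and run 5′ to 3′ along the gene. They lie at chr8:43306960-43307259 on the minus strand for Zfp42, at chr6:122707315-122707614 on the plus strand for Nanog, and at chr1:136953581-136953880 on the minus strand for Nr5a2. Capitals mark matches to any of 5 short motifs on either strand.
Zfp42: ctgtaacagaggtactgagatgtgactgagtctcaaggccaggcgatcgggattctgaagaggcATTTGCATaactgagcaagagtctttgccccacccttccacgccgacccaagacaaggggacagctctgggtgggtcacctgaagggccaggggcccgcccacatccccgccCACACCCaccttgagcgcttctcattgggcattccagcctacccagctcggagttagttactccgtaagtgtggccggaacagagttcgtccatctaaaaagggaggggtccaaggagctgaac
Nanog: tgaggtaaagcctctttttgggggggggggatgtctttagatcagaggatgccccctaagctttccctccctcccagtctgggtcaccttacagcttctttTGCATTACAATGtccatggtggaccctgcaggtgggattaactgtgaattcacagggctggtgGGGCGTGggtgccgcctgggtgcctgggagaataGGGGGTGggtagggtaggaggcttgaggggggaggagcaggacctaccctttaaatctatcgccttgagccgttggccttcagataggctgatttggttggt
Nr5a2: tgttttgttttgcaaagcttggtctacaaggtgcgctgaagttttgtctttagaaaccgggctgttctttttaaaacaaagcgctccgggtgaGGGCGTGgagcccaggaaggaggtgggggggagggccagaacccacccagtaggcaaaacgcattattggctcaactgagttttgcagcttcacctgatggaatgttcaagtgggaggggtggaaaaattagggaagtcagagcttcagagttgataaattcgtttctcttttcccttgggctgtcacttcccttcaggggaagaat
The motifs were the octamer ATGCAAAT bound by POU factors, the joint POU-SOX element (CATTGT, any 1 base, then ATGCA), the nuclear receptor motif AAGGTCA, the STAT motif TTCCNGGAA and the KLF motif GGGNGTG. No 2 matches overlapped in these promoters.

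The first block of capitals in the Zfp42 promoter is the octamer on the opposite strand, at positions -186 to -179 from the start, and 1.74% of the 32851 RefSeq promoters of this length held an octamer. The long block in the Nanog promoter is the POU-SOX element on the opposite strand, at -149 to -138 of the start shown. Only 9 of the 32851 promoters (0.0274%) held that element, and 2 of the 9 were the overlapping promoters of the 2 annotated Nanog starts. The single match in the Nr5a2 promoter shown is a KLF motif at -157 to -151. The promoter of another annotated Nr5a2 start (chr1:136960399-136960698), not shown, held no match to any of the 5 motifs. KLF matches were common, in 29.2% of all promoters, and in 7 of the 10 promoters listed for the members, which covered 6 of the 7 genes found in the table. Neither the nuclear receptor motif (4.72% of all promoters) nor the STAT motif (1.15%) occurred in the 10 member promoters. Tbx3 had no entry. A match describes the letters and is not a measured binding site.

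Sox2-positive cells carried far more RNA of 6 of the 8 naive genes than Sox2-negative cells of the same day. Zfp42, Esrrb, Tbx3, Tcl1, Tfcp2l1 and Nanog rose, with differences between 2.71 and 6.79 log2 units on their brightest probe sets. Nr0b1 was 1.28 higher without passing the test, and Nr5a2, by its brightest probe set, 0.50 higher without passing. Of the 13 member probe sets limma called 8 higher and 0 lower (0 lower also at an unadjusted p under 0.05), or 7 of 12 higher without a dim Esrrb probe set that passed the filter only through groups where it is high, while 6.19% of all kept probe sets were called higher and 5.07% lower. The median difference was 2.71 over the member probe sets and 4.67 over the 8 genes, against -0.02 over all kept probe sets. The median over the 8 genes rests partly on Sox2-negative values under 4. In bulk samples fewer cells of a type and less RNA per cell cannot be told apart, so these levels do not say whether each Sox2-positive cell carried more.

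**Figure D1:**
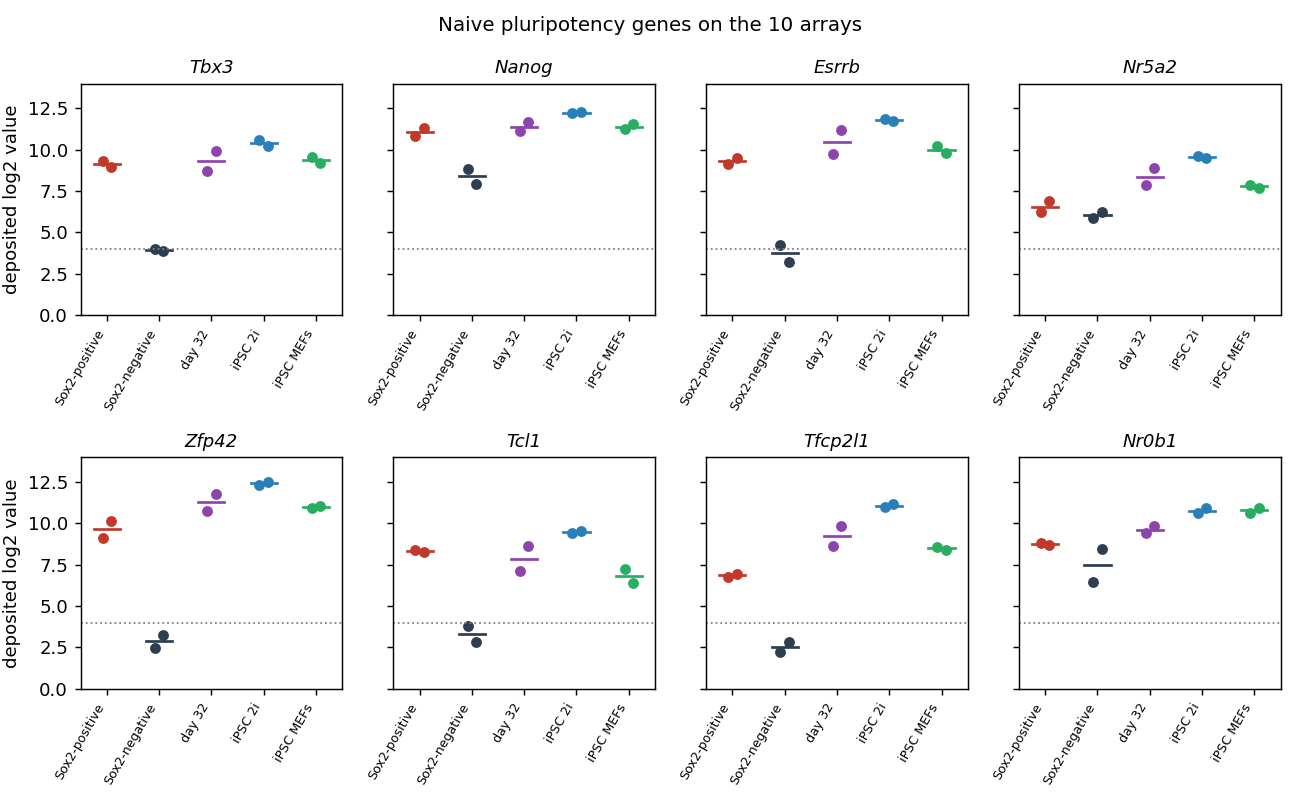
Deposited log2 values (y axis) of the 8 naive genes, each by its brightest kept probe set, on the 10 arrays. Points are arrays, short lines are means of 2 arrays, and the dotted line marks the filter value of 4. Both Sox2-negative arrays lie under 4 for Zfp42, Tcl1 and Tfcp2l1, while Nanog reads 8.86 and 7.92 and Nr0b1 6.48 and 8.46 there.

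The members are taken in the order of how near the Sox2-positive fraction lay to iPSC with MEFs, each by its brightest probe set, the nearest first. Tbx3, a T-box factor that can sustain self-renewal of mouse embryonic stem cells when overexpressed, came first. Its brightest probe set (1448029_at) read 9.32 and 8.96 in Sox2-positive cells, 4.01 and 3.87 in Sox2-negative cells, 8.70 and 9.93 in the day 32 sample, 10.57 and 10.22 in iPSC in 2i, and 9.54 and 9.20 in iPSC with MEFs. The Sox2-positive arrays, the day 32 arrays and the iPSC with MEFs arrays overlapped, iPSC in 2i lay above them and Sox2-negative cells far below. Sox2-positive cells were 5.20 (SE 0.39) above Sox2-negative cells, or 36.8-fold (adjusted p = 3.56e-04), and differed from iPSC with MEFs by -0.23 (95% interval -1.11 to 0.65, adjusted p = 0.678). The dimmer Tbx3 probe set (1439567_at) did not repeat that closeness. It read 7.19 and 6.58 in Sox2-positive cells, 2.86 and 2.79 in Sox2-negative cells, 4.21 and 5.33 in the day 32 sample, 6.11 and 6.07 in iPSC in 2i, and 4.93 and 5.12 in iPSC with MEFs. By this probe set Sox2-positive cells were at least 7.39-fold above Sox2-negative cells (adjusted p = 6.04e-04) and 3.63-fold above iPSC with MEFs (adjusted p = 0.00643, or 0.0544 without replicate a of iPSC with MEFs). Both probe sets thus put Sox2-positive far above Sox2-negative cells, and they disagree about iPSC with MEFs.

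Nanog, the homeodomain factor whose rise marks entry to the pluripotent state, came next. Its single probe set (1429388_at) read 10.86 and 11.33 in Sox2-positive cells, 8.86 and 7.92 in Sox2-negative cells, 11.13 and 11.66 in the day 32 sample, 12.22 and 12.28 in iPSC in 2i, and 11.23 and 11.54 in iPSC with MEFs. The Sox2-positive, day 32 and iPSC with MEFs arrays overlapped, and both Sox2-negative arrays lay below all others while staying well above the filter value. Sox2-positive cells were 6.52-fold above Sox2-negative cells (difference 2.71, SE 0.36, adjusted p = 0.0029) and not separable from iPSC with MEFs (-0.29, 95% interval -1.10 to 0.52, adjusted p = 0.564). The interval leaves room for a Nanog level in Sox2-positive cells about 1 unit under that of iPSC with MEFs.

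Esrrb, an orphan nuclear receptor and a main target of GSK3 inhibition, followed. The brightest probe set (1436926_at) read 9.11 and 9.47 in Sox2-positive cells, 4.24 and 3.20 in Sox2-negative cells, 9.75 and 11.17 in the day 32 sample, 11.84 and 11.71 in iPSC in 2i, and 10.22 and 9.79 in iPSC with MEFs. Both Sox2-positive arrays lay just below both iPSC with MEFs arrays, a gap of -0.72 that did not pass the test (95% interval -1.80 to 0.37, adjusted p = 0.283). Against Sox2-negative cells Esrrb was 47.5-fold higher (difference 5.57, SE 0.48, adjusted p = 4.84e-04). A dim Esrrb probe set (1422986_at) passed the filter only through the Sox2-positive and iPSC with MEFs arrays. It read 4.43 and 4.45 in Sox2-positive cells, 1.64 and 2.08 in Sox2-negative cells, 2.49 and 2.44 in the day 32 sample, 2.64 and 2.72 in iPSC in 2i, and 4.21 and 4.11 in iPSC with MEFs. It read lower in iPSC in 2i and the day 32 sample than in iPSC with MEFs, where the bright probe set averaged higher in both.

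Nr5a2, an orphan nuclear receptor that binds regulatory regions of Pou5f1 and can take the place of Pou5f1 in mouse reprogramming, came after Esrrb by its brightest probe set (1420410_at). That probe set read 6.22 and 6.89 in Sox2-positive cells, 5.87 and 6.25 in Sox2-negative cells, 7.86 and 8.88 in the day 32 sample, 9.62 and 9.51 in iPSC in 2i, and 7.88 and 7.70 in iPSC with MEFs. The fractions overlapped each other and both lay below every other array. The fractions differed by 0.50 (95% interval -0.34 to 1.33, adjusted p = 0.428). Sox2-positive cells were 2.35-fold below iPSC with MEFs (-1.24, SE 0.37, adjusted p = 0.032).

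None of the other 3 Nr5a2 probe sets was called between the fractions, and their directions differed. Probe set 1456521_at read 4.72 and 4.89 in Sox2-positive cells, 5.14 and 5.18 in Sox2-negative cells, 7.66 and 8.43 in the day 32 sample, 9.40 and 9.63 in iPSC in 2i, and 7.38 and 6.78 in iPSC with MEFs. Here Sox2-positive cells were the lowest group, -0.36 against Sox2-negative cells (95% interval -1.08 to 0.37, adjusted p = 0.518). The last 2 probe sets, 1449706_s_at, whose fractions overlapped, and 1449707_at, with both Sox2-positive arrays above both Sox2-negative ones, gave differences of 0.58 (adjusted p = 0.49) and 0.39 (adjusted p = 0.503). Against iPSC with MEFs all 4 fell in Sox2-positive cells, by 2.35-fold, 4.84-fold (adjusted p = 0.00186), 3.24-fold (adjusted p = 0.0287) and 3.51-fold (adjusted p = 0.00489) in the order given. The calls of 1456521_at and 1449707_at held under all 11 alternatives run for each. That of 1420410_at was lost without replicate a of Sox2-positive cells (adjusted p = 0.168) and without either array of iPSC with MEFs (0.149 for a, 0.0995 for b), after quantile normalization (-0.71, 0.226) and after median centring (-0.96, 0.0818). That of 1449706_s_at was lost after both (0.0705 and 0.0594) and without any single array of the 2 groups (adjusted p between 0.052 and 0.134). The upper bounds of the intervals allow a Sox2-positive rise of up to 1.70 log2 units over Sox2-negative cells, below the rise measured for each of the 6 genes that were called.

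**Figure D2:**
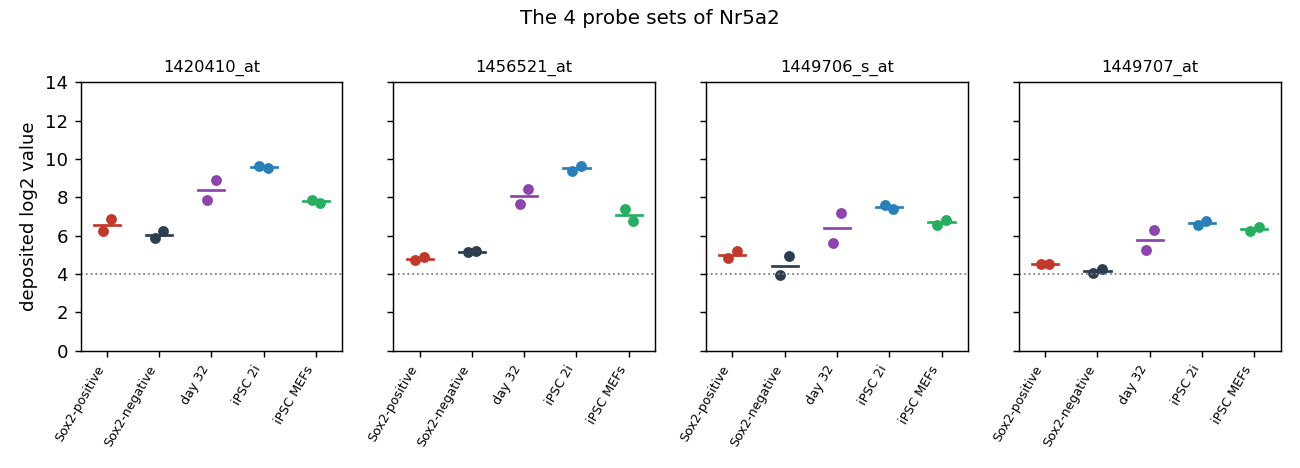
Deposited log2 values (y axis) of the 4 Nr5a2 probe sets on the 10 arrays, with points for arrays, short lines for means and a dotted line at the filter value of 4. In all 4 panels the 4 sorted arrays lie between 3.93 and 6.89 and below every array of the other 3 groups.

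Zfp42, a zinc finger protein also known as Rex1 and a classic marker of the naive state, showed the largest measured difference between the fractions. That difference rests partly on Sox2-negative values under 4. Probe set 1418362_at read 9.15 and 10.16 in Sox2-positive cells, 2.47 and 3.27 in Sox2-negative cells, 10.75 and 11.81 in the day 32 sample, 12.35 and 12.54 in iPSC in 2i, and 10.91 and 11.07 in iPSC with MEFs. No Sox2-positive array reached an iPSC array, and the day 32 arrays lay on either side of iPSC with MEFs. The difference between the fractions was 6.79 (SE 0.45), at least 50.4-fold (adjusted p = 3.28e-04). Sox2-positive cells were 2.52-fold below iPSC with MEFs (-1.34, adjusted p = 0.0475), a call lost when replicate a of Sox2-positive cells (-0.83, adjusted p = 0.257) or either iPSC with MEFs array was left out (adjusted p = 0.144 and 0.177). The difference was -0.49 after quantile normalization (adjusted p = 0.492) and -1.06 after median centring (0.106), and the adjusted p was 0.0678 with no filter.

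Tcl1, the AKT coactivator and a gene that depends on Pou5f1 in mouse embryonic stem cells, was the member whose brightest probe set read higher in Sox2-positive cells than in iPSC with MEFs. Probe set 1422458_at read 8.40 and 8.25 in Sox2-positive cells, 3.82 and 2.84 in Sox2-negative cells, 7.10 and 8.63 in the day 32 sample, 9.45 and 9.54 in iPSC in 2i, and 7.22 and 6.41 in iPSC with MEFs. Both Sox2-positive arrays lay above both iPSC with MEFs arrays and below both iPSC in 2i arrays. Sox2-positive cells were at least 20.0-fold above Sox2-negative cells (difference 5.0, SE 0.51, adjusted p = 9.79e-04). They were 2.85-fold above iPSC with MEFs (1.51, 95% interval 0.35 to 2.67, adjusted p = 0.0491), a call lost whenever any single array of the 2 groups was left out (adjusted p = 0.155 and 0.103 without replicate a or b of Sox2-positive cells, 0.0835 and 0.256 without iPSC with MEFs a or b), and also with no filter (0.0744), array weights (0.0599) or the replicate block (0.059).

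Tfcp2l1, a CP2-family factor that acts downstream of LIF and STAT3, was the next to last in nearness. Probe set 1418091_at read 6.75 and 6.96 in Sox2-positive cells, 2.22 and 2.81 in Sox2-negative cells, 8.63 and 9.86 in the day 32 sample, 10.97 and 11.16 in iPSC in 2i, and 8.59 and 8.41 in iPSC with MEFs. The groups did not overlap at all, and the order ran iPSC in 2i, day 32, iPSC with MEFs, Sox2-positive, Sox2-negative. Sox2-positive cells were at least 7.24-fold above Sox2-negative cells (difference 4.34, SE 0.39, adjusted p = 5.75e-04) and 3.13-fold below iPSC with MEFs (-1.65, adjusted p = 0.0134). The call against iPSC with MEFs did not hold without replicate a of Sox2-positive cells (adjusted p = 0.0624), nor without either array of iPSC with MEFs (0.0845 for a and 0.0581 for b), nor after quantile normalization (-1.0, adjusted p = 0.122). The other 2 Tfcp2l1 probe sets stayed between 1.91 and 2.96 on all arrays.

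Nr0b1, the X-linked corepressor also called Dax1, stood farthest from iPSC with MEFs in deposited values among the brightest probe sets. The dimmer Nr5a2 1456521_at lay farther (-2.28). Probe set 1417760_at read 8.81 and 8.68 in Sox2-positive cells, 6.48 and 8.46 in Sox2-negative cells, 9.40 and 9.83 in the day 32 sample, 10.61 and 10.92 in iPSC in 2i, and 10.66 and 10.94 in iPSC with MEFs. The iPSC groups overlapped, the other groups followed without overlap, and the 2 Sox2-negative arrays lay 1.98 apart. Sox2-positive cells were 2.42-fold above Sox2-negative cells (1.28, 95% interval 0.08 to 2.47, adjusted p = 0.153), and the difference was 2.27 (adjusted p = 0.00827) without replicate b of Sox2-negative cells. They were 4.16-fold below iPSC with MEFs (-2.06, SE 0.53, adjusted p = 0.0177). That call was lost whenever any single array of the 2 groups was left out (adjusted p between 0.0585 and 0.0967), with differences of -2.20 to -1.92, and after quantile normalization (-1.15, adjusted p = 0.17).

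Over the 8 genes, Sox2-positive cells against iPSC with MEFs gave 1 gene higher (Tcl1), 4 lower (Nr5a2, Zfp42, Tfcp2l1 and Nr0b1) and 3 not called (Tbx3, Nanog and Esrrb). Of the 13 probe sets 2 were called higher and 7 lower, and 7.38% of all kept probe sets were called higher and 25.4% lower in this comparison. Over all kept probe sets the median difference was -0.34, or -0.04 after quantile normalization. Relative to that shift the differences were 0.11 for Tbx3, 0.05 for Nanog, -0.38 for Esrrb, -0.90 for Nr5a2, -1.0 for Zfp42, 1.85 for Tcl1, -1.31 for Tfcp2l1 and -1.72 for Nr0b1. The order turns at both ends on this scale, with Nanog nearer than Tbx3 and Tcl1 farther than Nr0b1. The signs for Tbx3, Nanog and Esrrb turned under quantile normalization (0.45, 0.40 and 0.04, none called). Under it 4 member probe sets were called, Tbx3 1439567_at and Tcl1 higher and 2 of Nr5a2 lower. Limma called 1034 probe sets higher and 3566 lower, and 1264 higher and 1450 lower after quantile normalization or 1559 and 2276 after median centring.

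Expressed as a share of the distance between Sox2-negative cells and iPSC with MEFs, Sox2-positive cells stood at 95.8% for Tbx3, 90.3% for Nanog, 88.6% for Esrrb, 83.6% for Zfp42 and 72.5% for Tfcp2l1. Tcl1 stood past the end at 143%. Nr5a2 stood at 28.6% and Nr0b1 at 38.3%. The Nr0b1 share rests on the 2 Sox2-negative arrays that lay far apart, and it was 12.2% without replicate a and 52.4% without replicate b of Sox2-negative cells. These shares are of log2 distances from brightest probe sets, and those of Zfp42, Tcl1 and Tfcp2l1 rest partly on values under 4 in Sox2-negative cells. Those of Esrrb and Tbx3 do so through 1 Sox2-negative array each (3.20 and 3.87). Other probe sets gave other positions. Sox2-positive cells lay above iPSC with MEFs by Tbx3 1439567_at and below Sox2-negative cells by Nr5a2 1456521_at.

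**Figure D3:**
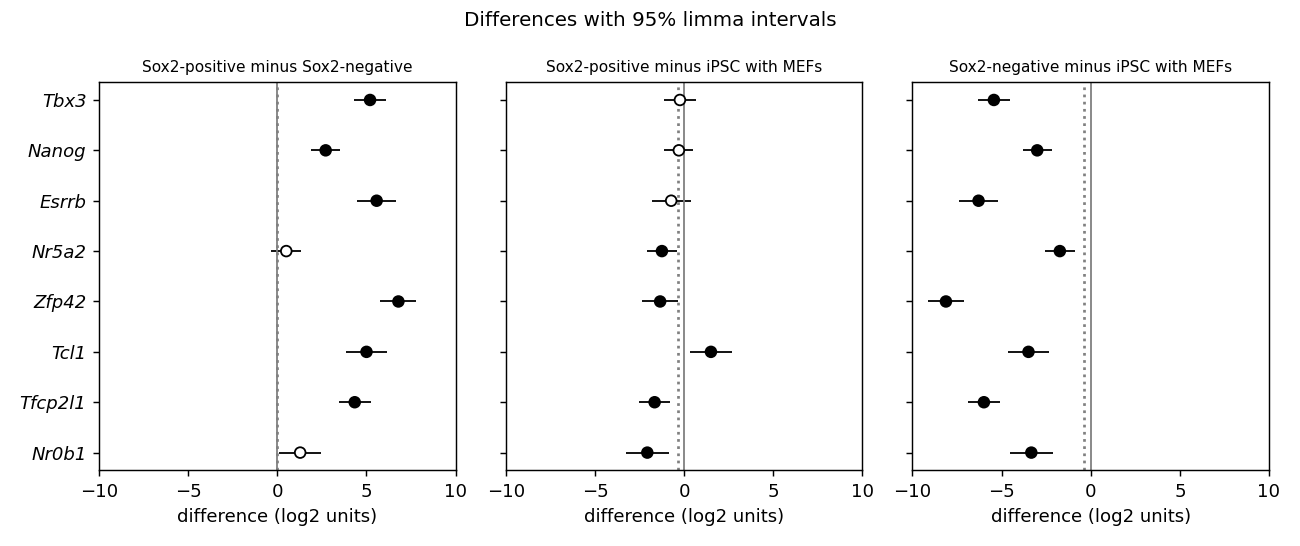
Differences in log2 units with 95% limma intervals for the brightest probe set of each naive gene, in order of nearness to iPSC with MEFs, in 3 comparisons. Filled points were called, open points were not, and the dotted line marks the median over all kept probe sets. Sox2-positive cells exceed Sox2-negative cells by 2.71 to 6.79 for 6 genes, and Tbx3, Nanog and Esrrb lie within 0.72 of iPSC with MEFs.

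Sox2-negative cells lay below iPSC with MEFs in every member probe set tested. All 13 were called lower, or 12 of 12 without the dim Esrrb probe set, which iPSC with MEFs helped past the filter, while 31.6% of all kept probe sets were called lower and 13.4% higher. The difference was -8.12 for Zfp42 (at least 127-fold, adjusted p = 7.43e-05), -6.29 for Esrrb (78.0-fold, adjusted p = 1.09e-04), -5.99 for Tfcp2l1 (at least 22.6-fold), -5.43 for Tbx3 (43.1-fold) and -3.49 for Tcl1 (at least 7.04-fold, adjusted p = 9.97e-04). For the other members it was -3.33 for Nr0b1 (10.1-fold, adjusted p = 0.00138), -3.00 for Nanog (7.97-fold, adjusted p = 4.27e-04) and -1.73 for Nr5a2 (3.32-fold, adjusted p = 0.00553). The differences of Zfp42, Tfcp2l1 and Tcl1 rest partly on background and have no rank beside these. Nanog, Nr0b1 and Nr5a2 were the genes whose brightest probe set stayed above 4 on both Sox2-negative arrays. Esrrb and Tbx3 had 1 Sox2-negative array on each side of 4. The median over all kept probe sets was -0.38, and -0.05 after quantile normalization, under which the 13 calls remained. All kept probe sets gave 1882 higher and 4425 lower, and 2320 and 2630 after quantile normalization or 2462 and 3289 after median centring.

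The day 32 sample lay below iPSC in 2i in the mean of all 15 member probe sets, including the 2 dim ones of Tfcp2l1. Of the 13 tested, 2 were called lower and 0 higher by limma (0 higher also at an unadjusted p under 0.05), and 2.36% of all kept probe sets were called lower and 3.95% higher. Tfcp2l1 fell by 1.82 on the log2 scale (3.53-fold, adjusted p = 0.0304) and Nr5a2 1456521_at by 1.47 (2.77-fold, adjusted p = 0.032). The other brightest probe sets gave differences between -1.63 (Tcl1, adjusted p = 0.0968) and -0.86 (Nanog, adjusted p = 0.19), with Esrrb at -1.32 (adjusted p = 0.14), Zfp42 at -1.17 (adjusted p = 0.157) and Nr0b1 at -1.15 (adjusted p = 0.228). The member median was -1.17 against -0.14 over all kept probe sets. The Tfcp2l1 call was lost without replicate a of the day 32 sample (adjusted p = 0.218) and without either array of iPSC in 2i (0.104 for a, 0.174 for b), as was that of Nr5a2 (0.259, 0.102 and 0.193). Without replicate b of the day 32 sample 8 member probe sets were called lower.

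The 2 day 32 arrays differed from each other in the naive genes more than in most of the array. All 8 genes read higher on replicate b, by 0.43 to 1.53 with a median of 1.15, while the median over all kept probe sets was 0.05 and 54.1% of them were higher on b. In the other groups 5 of 8 (Sox2-positive), 4 of 8 (Sox2-negative), 5 of 8 (iPSC in 2i) and 3 of 8 (iPSC with MEFs) read higher on b. On the same 2 day 32 arrays, all 12 listed genes that mark the naive state read higher on b (median 1.51), as did 8 of 9 other naive regulators (1.21), 8 of 9 primitive endoderm markers (0.66), 4 of 5 trophoblast markers (0.92), 6 of 8 primed epiblast genes (1.0) and all 6 of the GSK3 and TCF list (0.39). Of 9 fibroblast markers 3 did (-0.27). The part of these differences in the day 32 results was not tested beyond leaving out each array.

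**Figure D4:**
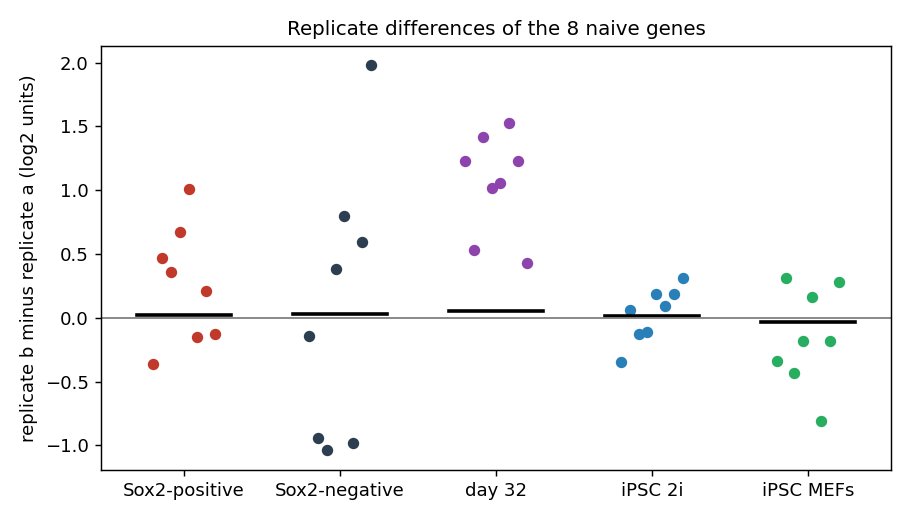
Replicate b minus replicate a in log2 units (y axis) for the brightest probe set of each of the 8 naive genes in the 5 groups. Points are genes and black lines the median over all kept probe sets. The day 32 points all lie above 0, between 0.43 and 1.53, and the Sox2-negative points spread from -1.04 to 1.98.

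Between the established cultures, limma called 8 of 13 member probe sets higher in iPSC in 2i than in iPSC with MEFs and 1 lower. However, 50.4% of all kept probe sets were called higher and 11.2% lower in this comparison, which crosses the array classes. The median difference was 1.07 over the member probe sets and 1.61 over the genes, against 0.93 over all kept probe sets. Tcl1 was 6.41-fold higher (2.68, adjusted p = 0.00181) and Tfcp2l1 5.92-fold (2.57, adjusted p = 5.62e-04), and these calls held under all 12 alternatives. Nr5a2 1456521_at (2.44, adjusted p = 2.62e-04) also held under all 11 run for it. The dim Esrrb probe set read under 4 on both iPSC in 2i arrays, at least 1.12-fold lower, and it was kept only through groups where it is high. The bright one rose 3.41-fold (adjusted p = 0.0109, and 0.0534 or 0.0745 without iPSC in 2i a or iPSC with MEFs b), with a difference of 1.77 that was 0.66 after median centring (adjusted p = 0.293). Zfp42 (1.46, adjusted p = 0.019) and the Tbx3 probe sets 1448029_at and 1439567_at (1.03 and 1.07, adjusted p = 0.044 and 0.032) were higher, and each of these 3 calls was lost whenever any of the 4 arrays was left out (adjusted p between 0.0574 and 0.193). After median centring Zfp42 differed by 0.34 (adjusted p = 0.561) and the Tbx3 probe sets by -0.09 and -0.05 (adjusted p = 0.863 and 0.924). Nr0b1 differed by -0.04 (95% interval -1.23 to 1.16, adjusted p = 0.957). Nanog was 0.87 higher (adjusted p = 0.0603), and -0.25 after median centring. All kept probe sets gave 7065 higher and 1569 lower, and 2957 and 2704 after quantile normalization or 2445 and 4216 after median centring.

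Across the 10 arrays the members followed each other closely, which is a description over arrays that share groups and classes. Pearson's r of each gene with the mean of the other 7 was 0.99 for Esrrb and Zfp42, 0.98 for Nanog and Tfcp2l1, 0.97 for Tbx3, 0.91 for Tcl1, 0.83 for Nr5a2 and 0.82 for Nr0b1. The loosest pair was Nr0b1 with Tcl1 (0.63). Among 4182 other genes that varied enough over the arrays (SD of at least 1), the 6 most like the mean of the members were Upp1, Jade1, Tpd52, Fhl1, Spint1 and Sox2, each with r of 0.99. All 6 were higher in Sox2-positive than in Sox2-negative cells, Upp1, which encodes a uridine phosphorylase, by at least 20.8-fold (adjusted p = 4.90e-04), Fhl1, a LIM-domain protein, by at least 11-fold (adjusted p = 0.0029) and Spint1, an inhibitor of serine proteases, by 13.6-fold (adjusted p = 0.00551). Jade1 was 4.86-fold and Tpd52 5.17-fold higher. The genes were picked for a pattern that includes this difference, so their rise is a description.

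The rest of the network was read from lists of related genes. Between the fractions 6.19% of all kept probe sets were called higher and 5.07% lower, the shares that stand beside each list count. Sox2, the gene that names the sort, averaged 9.96 ± 0.70 in Sox2-positive and 4.29 ± 0.23 in Sox2-negative cells (SD, n = 2 each), which describes the sort. Its partner Pou5f1 averaged 10.65 ± 0.38 in Sox2-positive and 10.59 ± 0.74 in Sox2-negative cells, a difference of 0.07 (adjusted p = 0.931), and whether its probe set also reads the factor supplied for reprogramming was not tested. Sall4, a zinc finger partner of Pou5f1, was 3.28-fold higher (adjusted p = 0.0252, and 0.0518, 0.103 and 0.0787 without replicate a or b of Sox2-positive or replicate a of Sox2-negative cells), and it was not called with the compared arrays alone (0.143) or with array weights (0.0742).

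All 12 listed genes that mark the naive state or depend on its factors rose in Sox2-positive over Sox2-negative cells, with a median of 4.80. Pecam1, an adhesion protein of the inner cell mass, rose at least 9.09-fold (adjusted p = 4.22e-04), Dppa2 at least 66.7-fold (adjusted p = 4.84e-04), Dppa5a 164-fold (adjusted p = 4.84e-04) and the growth factor gene Gdf3 29.9-fold (adjusted p = 8.94e-04). Against iPSC with MEFs 1 of the 12 was higher in Sox2-positive cells, Pecam1 (5.01-fold, adjusted p = 0.00287), and 3 were lower. Over all kept probe sets 7.38% were called higher and 25.4% lower there, so these counts do not set the list apart. The same 12 were all lower in Sox2-negative cells than in iPSC with MEFs, with a median of -5.45. Of all kept probe sets 31.6% were called lower in that comparison.

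Of 9 other naive regulators 3 rose in Sox2-positive over Sox2-negative cells and 0 fell (0 also at an unadjusted limma p under 0.05), with a median of 0.85. The Kruppel-like factor genes Klf5 and Klf2 rose 30.9-fold (adjusted p = 0.00107) and at least 9.19-fold (adjusted p = 0.00129), and the coactivator gene Ncoa3 at least 2.69-fold (adjusted p = 0.0328, lost without replicate b of Sox2-positive or either replicate of Sox2-negative cells at 0.152, 0.0962 and 0.072). Zfp281 differed by 0.85 (adjusted p = 0.054). Against iPSC with MEFs 25.4% of all kept probe sets were called lower and 7.38% higher in Sox2-positive cells. Of the 9 regulators 5 were lower there and 0 higher (0 also at an unadjusted limma p under 0.05). With so few genes the 0 higher says little beside that share. Klf2 was among the lower ones (-1.98, adjusted p = 0.0144), a call lost after quantile normalization (0.108) and without replicate a of Sox2-positive cells (0.0635) or of iPSC with MEFs (0.101).

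Of the 26 kept genes in 4 lists of signals that feed the network, 5 were called between the fractions, and 11.3% of all kept probe sets were called in either direction. In the LIF and STAT3 list 1 of 7 was higher, the receptor gene Lifr at 4.86-fold (adjusted p = 0.0185, lost at 0.074, 0.0533 and 0.0578 without replicate b of Sox2-positive or replicate a or b of Sox2-negative cells). In the GSK3 and TCF list 1 of 6 was higher, the repressor gene Tcf7l1 at 3.72-fold (adjusted p = 0.0317), and 1 was lower, Lef1 at least 2.52-fold (adjusted p = 0.0161). Lef1 passed the filter only through the Sox2-negative arrays, so its call follows from the filter and adds no support to the count of 5. Tcf7l1 was not called without replicate b of Sox2-positive or either replicate of Sox2-negative cells (adjusted p = 0.12, 0.103 and 0.0638), nor Lef1 without replicate b of either fraction (0.0684 and 0.0637). In the FGF and ERK list 1 of 9 was lower, the receptor gene Fgfr1 at 2.41-fold (adjusted p = 0.0146). In the AKT list, the axis on which Tcl1 acts, 1 of 4 was lower, Akt1 at 2.43-fold (adjusted p = 0.0426, and 0.178, 0.134 and 0.0696 without replicate b of Sox2-positive or replicate a or b of Sox2-negative cells). The medians of these 4 lists lay between -0.13 and 0.72.

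Genes of the primed epiblast, the state that follows the naive one, moved in both directions, with 3 of 8 higher and 2 lower in Sox2-positive than in Sox2-negative cells. The methyltransferase gene Dnmt3b rose 11.3-fold (adjusted p = 0.00632), the homeobox gene Otx2 at least 4.68-fold (adjusted p = 0.0085, 0.0523 without replicate b of Sox2-positive cells) and Pou3f1 at least 3.03-fold (adjusted p = 0.0194, and 0.103 or 0.0744 without replicate b of Sox2-positive or a of Sox2-negative cells). Sall2 fell at least 2.83-fold (adjusted p = 0.0302, and 0.111 or 0.102 without replicate a of Sox2-positive or b of Sox2-negative cells), and Cdh2, which encodes N-cadherin, was called lower as well, at least 4.23-fold (adjusted p = 0.0377, and 0.18 or 0.143 without replicate b of Sox2-positive or of Sox2-negative cells).

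**Figure D5:**
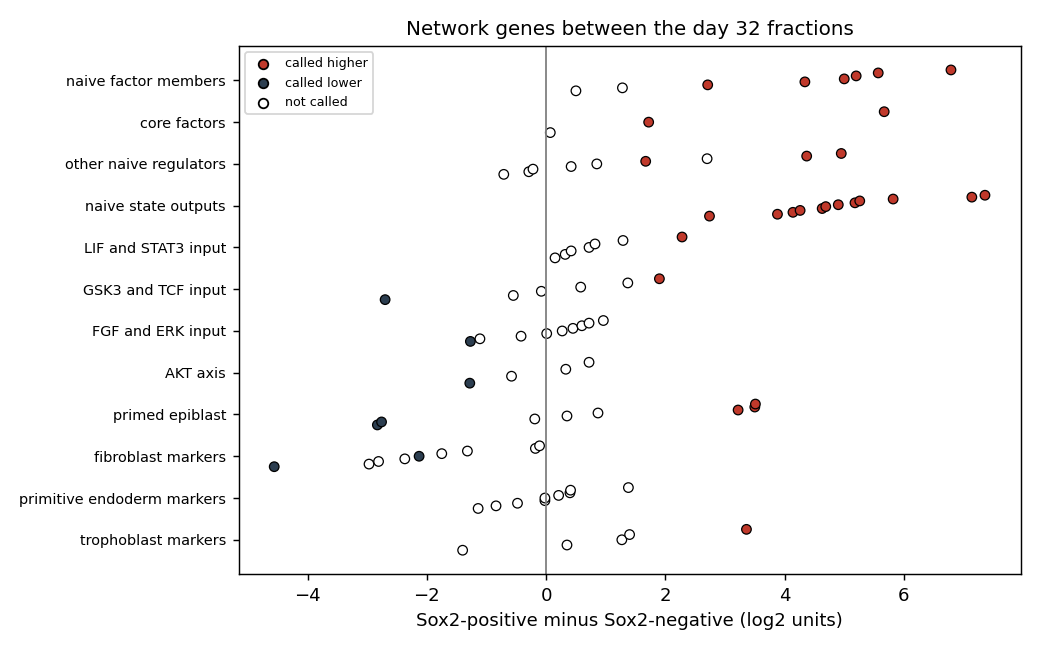
Differences in log2 units of every kept gene of the lists between Sox2-positive and Sox2-negative cells, on the x axis, with the 8 members in the top row. Points are genes by their brightest probe set, filled red when called higher, filled dark when called lower and open when not called. The 12 naive state genes have a median of 4.80, against 0.85 for the 9 other naive regulators.

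Most markers of other cell types were not called between the fractions. Of 9 fibroblast markers kept, 2 fell in Sox2-positive cells, S100a4 at least 7.41-fold (adjusted p = 8.94e-04) and Loxl1 at least 2.75-fold (adjusted p = 0.00681). The log2 of their summed level was 6.36 to 7.31 in Sox2-positive cells and 9.45 to 9.55 in Sox2-negative cells, and it was 10.34 to 10.58 in the day 32 sample, 8.18 to 8.71 in iPSC in 2i and 8.13 to 8.32 in iPSC with MEFs. Of the 9 markers 6 lay under 4 on both Sox2-positive arrays, against 1 in Sox2-negative cells and 4 in iPSC with MEFs. Against iPSC with MEFs 2 were lower in Sox2-positive cells and 0 higher, beside 25.4% and 7.38% of all kept probe sets. The 2 were Col1a1 (at least 11-fold, adjusted p = 0.00423) and Col1a2 (at least 2.69-fold, adjusted p = 8.87e-04). Both were also lower in Sox2-negative cells than in iPSC with MEFs, where 4 other fibroblast markers were higher. Col1a2 passed the filter only through iPSC with MEFs, so its 2 lower calls follow from the filter and add no support. Of 9 primitive endoderm markers limma called 0 between the fractions (1 at an unadjusted p under 0.05, median -0.02), and their summed level was 10.02 to 11.31 in Sox2-positive and 11.08 to 11.30 in Sox2-negative cells. Col4a1, Col4a2, Lama1 and Lamb1 make up most of it, as the other markers averaged at most 4.21 and 4.19 there. Against iPSC with MEFs 5 of the 9 were called higher and 0 lower in Sox2-positive cells, beside 7.38% and 25.4% of all kept probe sets. In Sox2-negative cells 3 were higher and 1 lower, beside 13.4% and 31.6%. Of 9 trophoblast markers on the array 5 were kept, and of these Ascl2 rose at least 4.5-fold (adjusted p = 0.00794). The summed level was 11.71 to 12.15 in Sox2-positive and 11.54 to 11.72 in Sox2-negative cells. That sum is mostly Tfap2c, which averaged 11.84 and 11.49, and the next brightest, Krt8, averaged 6.67 and 8.06. The part of these cell types in the levels of the naive genes was not tested.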

How the data were processed

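The deposited table holds log2 expression values, which the authors made with GCRMA and the affy package per the submitters' processing notes. The sources used here give neither tool versions nor whether all arrays were normalized jointly. Per the labels RNA was taken with Trizol and amplified with either of 2 NuGEN kits, not assigned to samples. The values were used as deposited. They lay between 0.58 and 14.51, and no pair of arrays shared more than 1.49% identical values.

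Of 22690 probe sets, 64 controls, 691 with several gene symbols and 1555 with none were left out. Those above 4 on at least 2 arrays were tested with limma 3.58.1 in R 4.3.3, with 1 mean per group over all 10 arrays (residual degrees of freedom 5, prior 4.24), 5 contrasts and Benjamini-Hochberg adjustment. The method was tested on simulated data. A gene stands for its brightest kept probe set. Where a group's arrays lay on both sides of 4 the full fold is given and rests partly on background.

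All 8 members are named, with up to 4 genes per list in order of adjusted p between the fractions and the 6 genes most like the members' mean, predicted genes passed over. Cdh2 was added after its values were seen. Members and lists were chosen with earlier results of these data known. Lists are described by counts and medians, without a test of the list. Replicate letters were not used to pair the samples in the main fit, and the labels do not state a pairing. Deviations correlated at -0.07 to 0.31 and exceeded 0.1 in 2 of 10 pairs of groups. These correlations cannot decide whether samples with the same letter share a culture. The alternatives were quantile normalization, median centring, no filter, a filter at 6, the compared arrays alone, array weights, 1 probe set per gene, a replicate block and leaving out each array. Promoters came from RefSeq. Plots used matplotlib 3.10.9 (Python 3.11.15).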

Additional observations from a re-analysis of the deposited data

How the results depend on the processing

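The 8 member calls of Sox2-positive against Sox2-negative cells held under each alternative that tested the probe set (highest adjusted p 0.0488, for Nanog), with 7 calls under the filter at 6 and 6 with 1 probe set per gene, and leaving out an array gave 8 to 9 calls. All member calls of Sox2-negative cells against iPSC with MEFs held wherever the probe set was tested, 13 in the main setting and 8 with 1 probe set per gene. Sox2-positive cells against iPSC with MEFs gave 9 member calls, but 4 after quantile normalization, 5 with 1 probe set per gene and 2 to 6 when an array was left out. The day 32 sample against iPSC in 2i gave 2, but 0 with the compared arrays alone, 5 with array weights, 1 with 1 probe set per gene and 0 to 8 when an array was left out. iPSC in 2i against iPSC with MEFs gave 9, but 4 after median centring and 5 to 6 when an array was left out. The fit with a replicate block gave 8, 8, 13, 2 and 8 member calls in the order of the 5 comparisons, losing Tcl1 against iPSC with MEFs (adjusted p = 0.059) and Tbx3 1448029_at between the iPSC groups (0.0545). Sign changes against iPSC with MEFs were Nanog 0.40, Esrrb 0.04 and Tbx3 0.45 after quantile normalization and Tbx3 0.05 after median centring. Between the iPSC groups they were Tbx3 1439567_at -0.06 and Nr5a2 -0.29 and -0.77 after quantile normalization, and Nanog -0.25, Tbx3 -0.05 and -0.09 and Nr5a2 -0.33 and -0.80 after median centring. Leaving out an array moved Nr0b1 between the iPSC groups over -0.19 to 0.12, and Pou5f1 between the fractions over -0.46 to 0.59. With the compared arrays alone 14 list genes lost their call between the fractions (adjusted p between 0.0513 and 0.157), namely Sall4, Ncoa3, Lifr, Lef1, Tcf7l1, Fgfr1, Akt1, Dnmt3b, Otx2, Pou3f1, Sall2, Cdh2, Loxl1 and Ascl2. The cause of these changes was not tested. Calls over all kept probe sets between the fractions numbered 1578, but 321 with the compared arrays alone, 451 with array weights and 649 without replicate b of Sox2-positive cells. Against iPSC with MEFs, Sox2-positive cells gave 4600, but 2714 after quantile normalization, and 2808, 1662 and 2245 without replicate a of Sox2-positive cells or arrays a and b of iPSC with MEFs, each in turn. Sox2-negative cells gave 6307, but 4087 with 1 probe set per gene, and 3739 and 4025 without iPSC with MEFs a or b. The day 32 sample gave 884, but 520 after quantile normalization, 302 with the compared arrays alone, 1990 with array weights, and 116, 233 and 241 without day 32 a, iPSC in 2i a or iPSC in 2i b. The iPSC groups gave 8634, but 5661 after quantile normalization and 5253 with 1 probe set per gene. Values near or under 4 carry little signal over background, which limits the Sox2-negative levels of Zfp42, Tcl1, Tfcp2l1, Esrrb and Tbx3 and the dim Esrrb probe set.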

Other observations

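The day 32 sample, which crosses to the other array class, read above Sox2-positive cells for 7 of the 8 naive genes, by 0.18 for Tbx3, 0.30 for Nanog, 0.87 for Nr0b1, 1.17 for Esrrb, 1.63 for Zfp42, 1.82 for Nr5a2 and 2.39 for Tfcp2l1, and below them for Tcl1 (-0.46). It read above Sox2-negative cells for all 8, by 2.15 for Nr0b1 to 8.41 for Zfp42. Array medians were 5.32 and 5.36 in the day 32 sample and 4.31 to 4.33 in the sorted fractions, so a higher reading alone does not set a gene apart. In these differences group and class cannot be told apart, and they were not tested.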
